A study of Mus musculus with 4 samples.

Results

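Genes for the proteins of the mitochondrial ribosome were followed in original and new cochlear hair cells of the mouse. They were taken by name, as every gene of the deposited table whose symbol was Mrpl or Mrps followed by a digit. This gave 77 of the 23996 genes, 48 named for the large subunit (Mrpl) and 29 for the small subunit (Mrps). All 77 were annotated as protein-coding, on 17 chromosomes, and none was listed at 0 in either group.

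The cells came from C57BL/6 mice that carried all of Sox2-CreER, Atoh1-HA, Atoh1-eGFP and tdTomato, killed at postnatal day 7. Tamoxifen was injected on postnatal day 3 at 0.20 mg for each g of weight, with corn oil for control animals, and the labels do not say from which of these animals the original hair cells were sorted. In such mice CreER, which tamoxifen activates, is made where Sox2 is active, chiefly in supporting cells of the cochlea, and it switches on the Atoh1-HA and tdTomato transgenes there. Atoh1 is the transcription factor that specifies hair cells, and Atoh1-eGFP marks the cells in which its enhancer is active. Original hair cells were sorted as eGFP-positive cells and new hair cells as cells positive for both eGFP and tdTomato, and each group had 2 libraries, 4 in all. Both groups carried all 4 alleles. The labels do not say whether the libraries of a group came from separate animals or pools.

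Mitochondria keep a small genome of their own, and its messenger RNAs, which encode core subunits of the respiratory chain and of ATP synthase, are read by a ribosome that works only inside the organelle. The RNA of this ribosome is made in the mitochondrion, whereas its proteins are encoded in the nucleus, made in the cytosol and imported. The small subunit binds the messenger RNA and decodes it, and the large subunit joins the amino acids. Many of the proteins descend from those of the bacterial ribosome, and others were added in mitochondria. Hair cells depend on mitochondrial ATP for ion transport and synaptic release, and in human some inherited forms of hearing loss follow from defects of mitochondrial translation.

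The values were FPKM (fragments per kilobase of transcript, scaled to all mapped fragments), deposited as 1 value per gene and group, so no spread between libraries could be given, no difference between the groups has a test of its own here, and the depth behind the values is unknown. The 9026 genes that reached 1 FPKM in some group and were listed at 0 in neither are called tested genes below, and all 77 members were among them. Differences are log2(FPKM + 1) in new minus original hair cells, and folds are plain ratios of FPKM. The FPKM column of the original hair cells summed to 8.87 times that of the new hair cells, so directions depend on how the columns are scaled. Each was therefore also taken after trimmed-mean scaling, quantile normalization and scaling to equal sums, and "on all 4 scales" means these 3 and the deposited values. Summed hair cell marker levels were 39886 FPKM in the original and 811 FPKM in the new group, with 10 and 9 of the 10 markers at 1 FPKM or more. Ocm (26071 and 592 FPKM) and Pvalb (9074 and 123 FPKM) made up most of these sums. None of the 10 markers was higher in the new group in FPKM, and Pou4f3 was nearly equal (16.7 and 16.1 FPKM). For supporting cell markers the sums were 15428 and 4711 FPKM, with 10 of 11 markers at 1 FPKM or more in each group. S100a1 carried these sums (15179 and 3617 FPKM), and 8 of the 11 markers were higher in the new group in FPKM, among them Epyc (97.0 and 725 FPKM) and Fabp7 (72.4 and 278 FPKM). The sums for spiral ganglion neuron markers were 3521 and 74.5 FPKM (4 of 6 markers at 1 FPKM or more in each group), for mesenchyme markers 2032 and 412 FPKM (6 and 4 of 7), for glia markers 988 and 11.6 FPKM (3 and 2 of 4) and for macrophage markers 4.13 and 73.0 FPKM (1 and 2 of 6). These sums too were mostly carried by 1 gene each in the original group. They were Nefl (3214 and 2.70 FPKM) for neurons, Otor (1383 and 0.226 FPKM) for mesenchyme and Cnp (983 and 3.998 FPKM) for glia. By contrast, Lum of mesenchyme was at 89.4 and 375 FPKM and Mbp of glia at 2.31 and 7.35 FPKM. Most of the neuron sum in the new group was Gata3 (299.6 and 66.9 FPKM), and 2 of the 6 neuron markers were higher there. Tyrobp carried the macrophage sums, at 3.24 and 71.7 FPKM. Of the 6 macrophage markers 2 were higher in the new group, and C1qa, Csf1r and Cx3cr1 were lower, each under 1 FPKM in both groups. Ptprc, the defining marker of leukocytes, and the red cell globin gene Hbb-bt were listed at 0 in both groups. The part of other cell types in the differences below was not tested, and in sorted pools fewer cells of a type and less RNA per cell cannot be told apart.

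The median level of large subunit members was 21.7 FPKM in the original against 17.1 FPKM in the new hair cells, and that of small subunit members 16.0 and 22.4 FPKM. Of the 48 large subunit members, 18 were at least 2-fold lower in the new group on the log2(FPKM + 1) scale, 11 were at least 2-fold higher and 19 lay between. The 29 small subunit members were divided into 12, 10 and 7. Over all tested genes, 34.9% were at least 2-fold lower and 19.9% at least 2-fold higher, against 39.0% and 27.3% of the 77 members. The median difference was -0.59 for the large subunit, -0.19 for the small subunit and -0.21 for all tested genes on the deposited scale. With quantile normalization these medians were 0.18, 1.28 and 0.26, with trimmed-mean scaling -0.32, 0.08 and 0.06, and with equal sums 2.22, 2.75 and 2.53. The subunits therefore kept their order on the 4 scales while the sign of both medians changed with the scaling. The difference between the subunits was not tested, since the files used here hold no value per library.

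The rank of a gene within its own column does not change with these scalings. Among the tested genes, the median large subunit member stood at the 71.1 percentile in original and the 81.1 percentile in new hair cells, and the median small subunit member at the 67.6 and 84.5 percentiles. In the large subunit, 24 members ranked higher in new and 24 lower. In the small subunit, 18 ranked higher and 11 lower. The median of both subunits was thus above the middle of the tested genes in both groups, and its position was higher in new hair cells. With a minimum of 5 FPKM the medians in original hair cells lay near the middle, at 53.3 for the large and 53.9 for the small subunit. On all 4 scales together, 20 members were lower in new hair cells, 34 were higher and 23 changed sign with the scaling. Those shares, 26.0% lower and 44.2% higher, lay near the 22.1% and 45% of all tested genes, so the sign of the difference does not set the family apart.

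**Figure D1:**
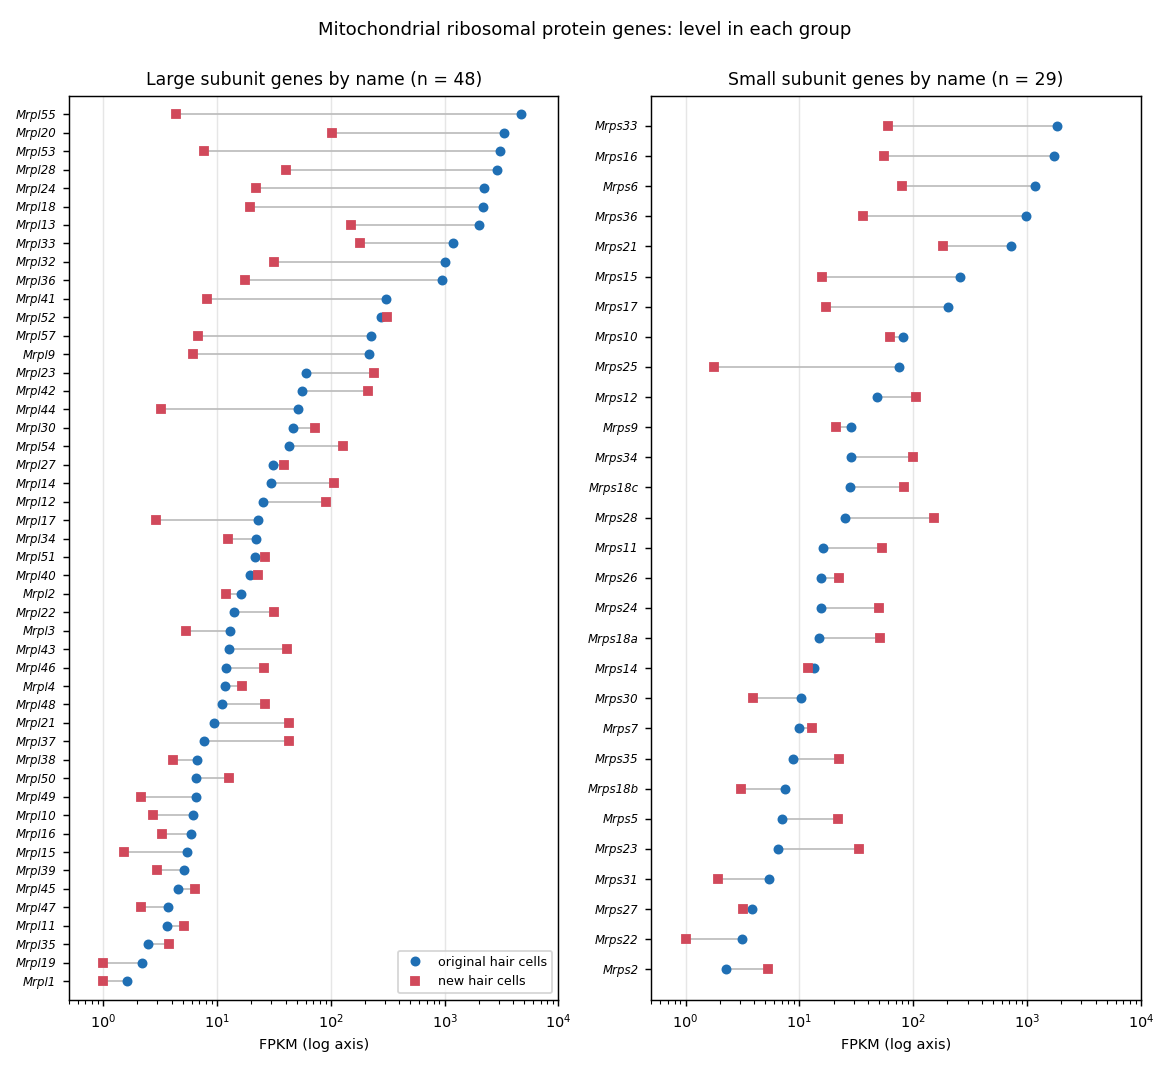
FPKM of each of the 48 large subunit genes (left) and 29 small subunit genes (right), ordered by their level in original hair cells. Circles are original and squares are new hair cells, 1 deposited value per group on a log axis, and grey lines join the values of a gene. The original column runs from 1.63 to 4657 FPKM and the new column from 0.997 to 312 FPKM.

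Levels varied widely within the family. In the original group they ranged over 2860-fold, from 1.63 FPKM for Mrpl1, whose bacterial homologue forms the L1 stalk, to 4657 FPKM for Mrpl55. In new hair cells they ranged over 313-fold, from 0.997 FPKM for Mrpl1 to 312 FPKM for Mrpl52. The SD of log2 FPKM across members was 3.17 in the original and 2.16 in the new group, against 3.44 and 2.61 across all tested genes. Mrpl1 and some others named outside the rule stated below were chosen after their values were seen. Spearman's rho between the levels in the 2 groups was 0.55 across the 77 members and 0.49 across all tested genes. These correlations are across genes, which share their libraries and are not independent replicates.

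In the original column no member lay between 82.0 FPKM (Mrps10) and 202.6 FPKM (Mrps17), a step of 1.30 on the log2 scale. A further step of 1.25 lay between 302 FPKM (Mrpl41) and 718 FPKM (Mrps21). The lower gap was taken as the divide after the values were seen, and 570 tested genes lie inside it. Above it were 21 members, 27.3% of the family, against 1005 tested genes or 11.1% of those tested. The 21 were 14 large and 7 small subunit members, and they held 96.7% of the summed FPKM of the family in the original and 39.5% in the new group. For all tested genes above the gap these shares were 93.2% and 63.3%. The new column showed no such step, with no distance between neighbouring members over 0.60 on the log2 scale. The level that divides the members is part of the difference, so members above the gap tend to come out lower and those below it higher, and the counts are a description. Spearman's rho between the original level and the difference was -0.49 across members and -0.69 across all tested genes. Of the 21 members, 20 were at least 2-fold lower in new hair cells on the deposited scale, with a median difference of -4.91. The same held for 973 of the 1005 tested genes above the gap, whose median was -4.45. Of the 20 members, 18 were lower on all 4 scales, and Mrpl33 and Mrps21 were higher with quantile normalization and with equal sums. The 56 members below the gap had a median difference of 0.40, with 21 at least 2-fold higher and 10 at least 2-fold lower. Those shares were 37.5% and 17.9%, against 23.9% and 22.5% of the 7451 tested genes below the gap. In rank, the median member above the gap stood at the 95.6 percentile in original and 88.0 in new hair cells, and the median member below it at 64.4 and 82.2. For the tested genes the corresponding ranks were 94.4 and 88.5 above the gap and 41.3 and 44.9 below it.

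**Figure D2:**
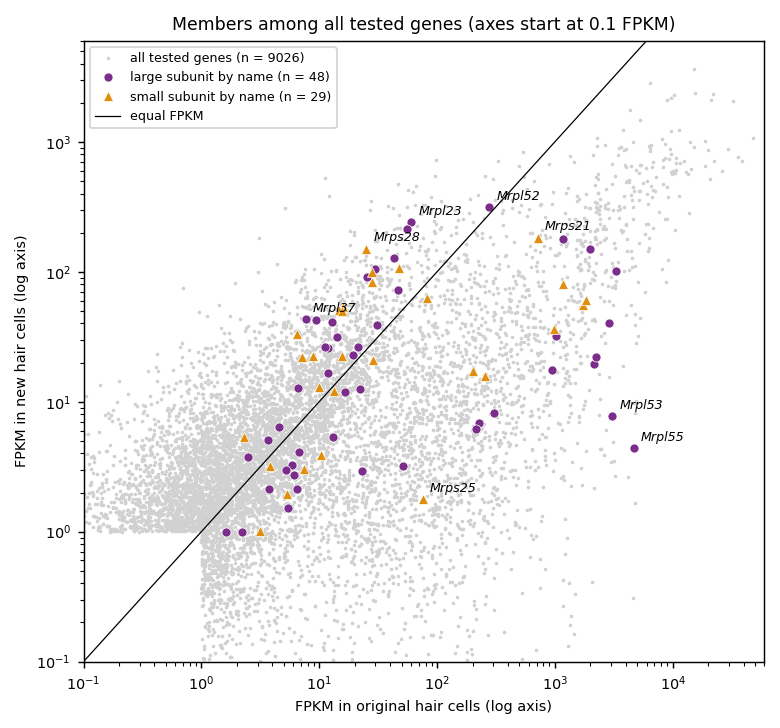
FPKM in original (x) and new hair cells (y) on log axes for all 9026 tested genes (grey), with the 48 large subunit genes as purple circles and the 29 small subunit genes as orange triangles. The line marks equal FPKM, and 297 tested genes below 0.1 FPKM in a group lie outside the axes. Members fall in both clouds of genes, 1 along the line and 1 to its right, where Mrpl55 and Mrpl53, both lower on all 4 scales, lie farthest from it.

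Among the large subunit genes, the highest levels in original hair cells belonged to proteins with bacterial homologues and to 1 mitochondria-specific protein. Mrpl55 (chr11:59202517-59206002, mm10), the counterpart of bacterial L31, was at 4657 FPKM in the original against 4.398 FPKM in the new hair cells, 1059-fold lower, with rank percentiles of 98.9 and 54.8. Mrpl53, a mitochondria-specific protein, was at 3053 and 7.71 FPKM, 396-fold lower, with ranks of 98.2 and 67.5. Its deposited locus (chr6:83101516-83109932) is shared with Ccdc142 and is wider than the gene. No other member had as large a difference on the log2(FPKM + 1) scale. Mrpl20, whose bacterial homologue is needed early in assembly of the large subunit, was at 3293 and 102 FPKM. Mrpl28 (chr17:26123503-26126613) was at 2883 and 40.2 FPKM, 71.6-fold lower. Mrpl24, whose bacterial homologue initiates assembly of the large subunit, was at 2225 and 21.9 FPKM, and Mrpl18, whose bacterial homologue binds 5S ribosomal RNA, at 2157 and 19.6 FPKM. All 6 were lower on all 4 scales, although Mrpl20 still ranked at the 95.1 percentile in new hair cells. Mrpl13, whose bacterial homologue is an early assembly protein, was at 2004 and 149 FPKM and stayed near the top in rank, at 97.3 and 96.4. Mrpl33 was at 1179 and 180 FPKM, and its direction depended on the scale, with differences of -2.71 on the deposited values, 0.63 with quantile normalization and 0.43 with equal sums.

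Mrpl52, a mitochondria-specific protein of the large subunit, was the exception on the deposited scale among the members above the gap. Its level was 276 FPKM in the original against 312 FPKM in the new group, the highest new value of the family, and stood at the 90.6 and 98.2 percentiles. Its difference was 0.18 on the deposited scale and positive on the other 3.

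Among the small subunit genes, Mrps33 (chr6:39801807-39810936), a mitochondria-specific protein, was highest in original hair cells at 1849 FPKM and stood at 60.6 FPKM in new hair cells. Mrps16, whose loss in human causes a fatal infantile mitochondrial disease, was at 1720 and 55.3 FPKM, 31.1-fold lower. Mrps6, the counterpart of bacterial S6, was at 1166 and 79.9 FPKM, and Mrps15, the counterpart of bacterial S15, at 256 and 15.8 FPKM. These 4 were lower on all 4 scales. Mrps25, a mitochondria-specific protein linked in human to a mitochondrial encephalomyopathy, lay just below the gap in original hair cells at 75.4 FPKM and stood at 1.78 FPKM in new hair cells, 42.4-fold lower, and was also lower on all 4 scales. Its rank went from the 81.9 to the 30.1 percentile. Mrps21 was at 718 and 183 FPKM, the highest small subunit value in new hair cells, and its difference was -1.96 on the deposited scale but 1.199 with quantile normalization and 1.18 with equal sums.

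Apart from Mrpl52, the members with higher values in new hair cells came from the lower part of the original column, and all of the following were higher on all 4 scales. Mrps28 (chr3:8802146-8923857), the small subunit protein related to part of bacterial S1, was at 25.1 FPKM in the original against 151 FPKM in the new group, 6.02-fold higher, and its rank went from 72.6 to 96.5. Mrpl37 (chr4:107055874-107066866), a mitochondria-specific large subunit protein, was at 7.70 and 43.0 FPKM, 5.58-fold higher. Mrps23, a mitochondria-specific small subunit protein, was at 6.44 and 33.4 FPKM, and Mrpl21, the counterpart of bacterial L21, at 9.43 and 42.9 FPKM. On the deposited scale the greatest fold among the higher members was thus 6.02, against 1059 among the lower, whereas with equal sums the differences of Mrps28 and Mrpl55 were 5.68 and -6.86 on the log2 scale. Mrpl23, whose bacterial homologue lies at the exit of the tunnel through which the new protein leaves, was at 60.1 and 242 FPKM. Mrpl42, which is mitochondria-specific, was at 55.6 and 213 FPKM. Mrpl12, the counterpart of the bacterial L7/L12 stalk protein that recruits translation factors, was at 25.5 and 90.7 FPKM. In the small subunit, Mrps34, which in human is linked to Leigh syndrome, was at 28.2 and 99.3 FPKM, and Mrps11, the counterpart of bacterial S11, at 16.0 and 53.2 FPKM. Each of these 5 was between 3.31-fold and 4.02-fold higher.

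The 3 Mrps18 genes are paralogs that descend from bacterial S18. Mrps18c, which occupies the bacterial position in the small subunit, was at 27.9 FPKM in the original against 83.2 FPKM in the new group, higher on all 4 scales. Mrps18a, which despite its name sits in the large subunit, was at 14.8 and 51.2 FPKM, also higher on all 4. Mrps18b was at 7.47 and 3.06 FPKM, lower on the deposited scale and with quantile normalization (-0.70) but higher with equal sums (1.73). Reads that these paralogs share could be divided between them in ways the table does not show.

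The authors' deposited table gave 9 members an unadjusted p under 0.05, all of them lower in new hair cells on all 4 scales. They were 11.7% of the members, against 8.83% of all tested genes lower and 0.554% higher in the authors' deposited table at that threshold, so the share of members is close to the background. In the authors' deposited table the p was 0.0131 for Mrpl55, 0.0188 for Mrpl53, 0.02695 for Mrpl28, 0.0282 for Mrpl18 and 0.02785 for Mrps33. It was 0.0235 in the authors' deposited table for Mrpl36 (945 and 17.6 FPKM), the counterpart of bacterial L36, and 0.0281 for Mrpl9 (215 and 6.20 FPKM), the counterpart of bacterial L9. For Mrpl32 (1017 and 31.9 FPKM), a protein that the m-AAA protease must process before the ribosome can assemble, the authors' deposited table gave 0.04335, and for Mrps16 it gave 0.04665. After Benjamini-Hochberg adjustment of the p-values of the authors' deposited table over all tested genes, 0% of genes passed 0.05, and the smallest adjusted value of a member was 0.526. Which test the authors ran for these values is not stated in the labels or the table.

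By place and descent, the 30 large subunit proteins with a bacterial homologue had a median difference of -0.73, 13 members (43.3%) at least 2-fold lower and 5 (16.7%) at least 2-fold higher, against 34.9% and 19.9% of all tested genes. Their median levels were 24.3 FPKM in the original against 17.1 FPKM in the new group. The 20 mitochondria-specific proteins placed in the large subunit had a median difference of 0.25, with 6 (30%) lower and 7 (35%) higher, and median levels of 13.8 and 17.7 FPKM. In the small subunit, as classed here, the order of the medians was the opposite. The 16 proteins with a bacterial homologue had a median difference of 0.10, with 5 (31.2%) lower and 6 (37.5%) higher, and median levels of 28.2 and 51.7 FPKM. The 10 mitochondria-specific proteins had a median of -0.62, with 5 (50%) lower and 3 (30%) higher, and levels of 8.16 and 12.8 FPKM. With quantile normalization the 4 medians were -0.42, 1.82, 1.37 and -0.33 in the same order. With equal sums they were 1.86, 3.35, 3.16 and 2.17. The order within each subunit thus stayed. The negative medians turned positive with equal sums but not with quantile normalization. The median rank of the small subunit proteins with a bacterial homologue was 73.9 in the original and 91.6 in the new group, the highest of the 4 classes in the new column. Above the gap in original hair cells were 15 of the 46 members with a bacterial homologue and 5 of the 30 mitochondria-specific members, 32.6% and 16.7% against 11.1% of all tested genes. Mrps18a and Mrps18b descend from bacterial S18 but were counted here as mitochondria-specific. Mrps18b had a difference of -1.06 in the small subunit. Counted with the bacterial homologues, it would leave Mrps14 (-0.14) as their middle member and Mrps27 (-0.19) as that of the mitochondria-specific proteins. The order of the medians there would thus stay on the deposited scale, but with the medians close together. The differences between these classes were not tested.

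**Figure D3:**
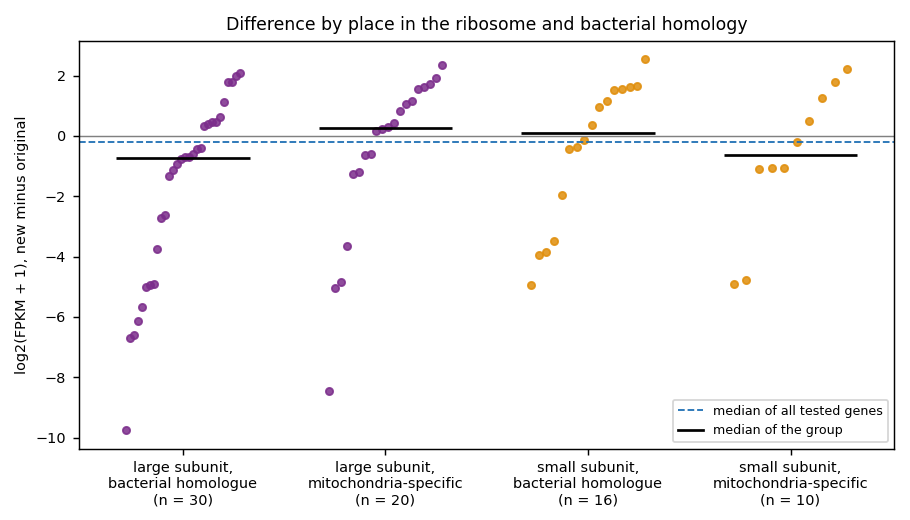
Difference in log2(FPKM + 1), new minus original hair cells, for each member by its place in the ribosome and by whether the protein has a bacterial homologue. Mrps18a and Mrps18b are drawn among the mitochondria-specific proteins. Each point is 1 gene, black bars are the medians of a class (-0.73, 0.25, 0.10 and -0.62 from left to right), the dashed line is the median of all tested genes and Mrps36 is not drawn. The values are on the deposited scale, and with equal sums the 4 medians are all above 0.

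Mrps30, Mrps18a and Mrps36 carry small subunit names that the structure of the mammalian ribosome does not bear out. Mrps30, found in the large subunit, was at 10.3 FPKM in the original against 3.88 FPKM in the new group, lower except with equal sums, where its difference was 1.65. Mrps36 is a part of the 2-oxoglutarate dehydrogenase complex of the citric acid cycle and no ribosomal protein. It was at 984 and 36.2 FPKM, 27.2-fold lower and lower on all 4 scales. With the genes sorted by place, the medians were -0.59 for 50 large subunit genes and -0.16 for 26 small subunit genes.

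MRPS2, MRPS7 and MRPL50 are genes in which rare human variants cause disease with hearing loss. Mouse Mrps2 was at 2.28 FPKM in the original against 5.34 FPKM in the new group, Mrps7 at 9.999 and 13.0 FPKM, and Mrpl50 at 6.61 and 12.6 FPKM. All 3 were below the median of the family in original hair cells, and their differences of 0.95, 0.35 and 0.84 were positive on all 4 scales.

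The promoters of 68 members could be read from RefSeq (GRCm38.p6, the build also called mm10), each as 300 bases from 250 before to 50 after the start of the gene. Factors that bind the promoters of nuclear genes for mitochondrial proteins include NRF1, the ETS factor GABP and YY1, and they were searched for by the cores CGCATGCG, CCGGAAG and AAGATGGCG, with the SP1 GC box GGGGCGGGG and the CCAAT box CCAAT, all on both strands. The 5 promoters printed are those of the most strongly lower genes of the large subunit, of the higher genes Mrpl37 and Mrps11, and of Mrpl52, which alone among the members above the gap was not lower on the deposited scale. Capitals mark the matches, read 5′ to 3′ on the strand of the gene, so a match on the other strand appears as CGCCATCTT for YY1, CTTCCGG for ETS or ATTGG for CCAAT.
Mrpl55 (chr11:59202236-59202535, plus strand): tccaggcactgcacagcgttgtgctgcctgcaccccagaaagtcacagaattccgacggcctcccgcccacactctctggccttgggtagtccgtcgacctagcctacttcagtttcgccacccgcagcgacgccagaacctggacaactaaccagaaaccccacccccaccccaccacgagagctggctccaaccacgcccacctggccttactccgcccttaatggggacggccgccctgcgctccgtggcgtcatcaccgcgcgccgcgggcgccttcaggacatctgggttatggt
Mrpl53 (chr6:83108858-83109157, plus strand): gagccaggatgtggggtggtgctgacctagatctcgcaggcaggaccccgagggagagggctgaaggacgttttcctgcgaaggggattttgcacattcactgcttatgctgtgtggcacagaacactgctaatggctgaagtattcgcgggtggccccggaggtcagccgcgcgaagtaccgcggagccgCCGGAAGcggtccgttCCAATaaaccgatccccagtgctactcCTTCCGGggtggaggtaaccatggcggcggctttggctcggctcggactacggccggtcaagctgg
Mrpl52 (chr14:54426659-54426958, plus strand): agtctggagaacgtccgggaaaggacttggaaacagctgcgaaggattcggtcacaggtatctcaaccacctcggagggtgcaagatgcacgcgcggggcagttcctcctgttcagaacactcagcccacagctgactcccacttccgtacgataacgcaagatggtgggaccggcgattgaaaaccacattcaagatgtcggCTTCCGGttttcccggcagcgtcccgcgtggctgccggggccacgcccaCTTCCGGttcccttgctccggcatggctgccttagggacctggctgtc
Mrpl37 (chr4:107066817-107067116, minus strand): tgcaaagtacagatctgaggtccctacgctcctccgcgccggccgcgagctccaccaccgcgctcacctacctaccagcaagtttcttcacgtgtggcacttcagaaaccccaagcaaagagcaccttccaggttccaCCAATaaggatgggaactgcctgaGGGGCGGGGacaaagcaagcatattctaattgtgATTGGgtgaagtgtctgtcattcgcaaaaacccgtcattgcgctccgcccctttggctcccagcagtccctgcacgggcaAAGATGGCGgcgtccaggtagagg
Mrps11 (chr7:78782881-78783180, plus strand): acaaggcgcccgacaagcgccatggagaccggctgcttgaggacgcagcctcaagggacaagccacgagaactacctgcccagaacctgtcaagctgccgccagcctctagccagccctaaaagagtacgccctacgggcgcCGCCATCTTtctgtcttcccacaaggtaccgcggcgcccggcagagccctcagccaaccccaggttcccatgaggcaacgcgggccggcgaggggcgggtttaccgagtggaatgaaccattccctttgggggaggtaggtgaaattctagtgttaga

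Mrpl55 held no match in this window, Mrpl53 held 2 ETS cores and 1 CCAAT box, and Mrpl52 held 2 ETS cores. Mrpl37 held 2 CCAAT boxes, 1 GC box and 1 YY1 core just after its start, and Mrps11 held 1 YY1 core. Across the 68 promoters, the ETS core was in 25 (36.8%), against 21.4% of 6862 tested genes with a promoter and 8.86% of all 32851 promoters in the table. The NRF1 core was in 7 (10.3%, against 4.69% and 1.87%) and the YY1 core in 8 (11.8%, against 3.96% and 1.40%). The GC box was in 13 (19.1%, against 25.8% and 11.4%) and the CCAAT box in 27 (39.7%, against 43.2% and 37.4%). By these shares the 3 cores of factors known from mitochondrial genes were more frequent in members than in tested genes, and the 2 general boxes were not, with no test made. A match describes letters in the window and is no measurement of binding.

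Mrps11 and Mrpl46 share a start region. They lie head to head on chromosome 7, with RefSeq starts 42 bases apart, at 78783131 on the plus strand and 78783089 on the minus strand, so 141 bases of their promoter windows are the same sequence (78783040 to 78783180). Mrps11 was at 16.0 and 53.2 FPKM and Mrpl46, a mitochondria-specific large subunit protein, at 11.9 and 26.0 FPKM, both higher in new hair cells on all 4 scales. Such neighbours were frequent in the family. In the GENCODE annotation, 33 of the 77 members (42.9%) had a protein-coding neighbour on the other strand that began within 1000 bases, against 1456 of 8396 tested genes (17.3%). Of 19 neighbours that were tested genes, 11 had a difference of the same sign on the deposited scale. The same share was not computed over all tested genes with such a neighbour, so this count has no background. Spearman's rho between the differences of members and neighbours was 0.05. The pair of Mrps11 and Mrpl46 was counted from both sides, and Mrpl48 and its neighbour Rab6a share a deposited locus. Mrpl32 (1017 and 31.9 FPKM) begins beside Psma2, a proteasome subunit, which was at 211 and 201 FPKM. Mrpl18 begins beside Tcp1, a subunit of the cytosolic chaperonin, at 22.9 and 26.8 FPKM. Mrpl14 (29.9 and 106 FPKM) begins beside Tmem63b, a stretch-activated ion channel, at 228 and 3.004 FPKM. Mrpl36 and its neighbour Ndufs6, a subunit of complex I at 4573 and 446 FPKM, were both lower on the deposited scale. These pairs were chosen after their values were seen.

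For 11 members the deposited row shared its locus with another gene, so reads may be divided between them. Mrpl24 and Rrnad1 (216 and 2.50 FPKM) shared a locus, as did Mrpl41 (302 and 8.22 FPKM) and Dph7 (24.9 and 0.641 FPKM). In both loci the 2 genes were lower in new hair cells on the deposited scale. Mrpl53 shared its locus with Ccdc142 at 1.00 and 0.0635 FPKM, Mrps25 with Nr2c2 at 0.268 and 0.973 FPKM, and Mrps6 with the transporter Slc5a3 at 0.304 and 0.711 FPKM. These 3 partners were far below the member in original hair cells. Mrpl49 (6.53 and 2.14 FPKM) was far below its partner Syvn1, a ubiquitin ligase of the endoplasmic reticulum, at 184 and 1.22 FPKM. With the 11 members left out, the medians on the deposited scale were -0.42 for the large and -0.14 for the small subunit.

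FPKM is a level per length, yet members with shorter GENCODE transcripts had higher values. Across the 77 members, Spearman's rho between the median length of the coding transcripts in GENCODE and the level was -0.46 in original and -0.56 in new hair cells, and between length and the difference -0.05. Across 8399 tested genes these values were -0.23, -0.36 and -0.01. The median length was 1047 bases for the members and 1929 bases for the tested genes, and 846 bases for members above the gap against 1212 bases for those below. The 25 members of up to 800 bases had median levels of 47.7 FPKM (original) and 60.6 FPKM (new), and the 22 members over 1500 bases had 9.42 and 5.79 FPKM. Of these classes, 10 of 25 short and 4 of 22 long members lay above the gap. By these lengths, long members thus had lower medians than short members in both columns. Of the 22 long members, 9 were at least 2-fold lower and 2 at least 2-fold higher in the new group on the deposited scale. Of the 5269 tested genes over 1500 bases, 34.5% were lower and 19.2% higher by that fold. Above the gap were 25.9% of tested genes of up to 800 bases and 6.85% of those over 1500 bases. The correlations are across genes that share their libraries. For some members the GENCODE length exceeded the whole deposited locus. Examples are Mrps26 (4278 bases, chr2:130563757-130565394) and Mrpl51 (3427 bases, chr6:125192200-125194392). For such members the GENCODE length cannot be the length behind the deposited FPKM, so the length classes are approximate.

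Proteins of the same ribosome that carry other names also differed in both directions. Chchd1, a small subunit protein, was at 1519 and 148 FPKM, with a difference of -3.35 on the deposited scale, 0.01 with quantile normalization and -0.21 with equal sums. Ict1, a large subunit protein that also releases stalled ribosomes, was at 22.9 and 60.6 FPKM, higher on all 4 scales, as was Aurkaip1 of the small subunit at 17.1 and 55.1 FPKM. Dap3, the GTP-binding protein of the small subunit, was at 162 and 4.11 FPKM and Ptcd3 of the small subunit at 131 and 3.31 FPKM, both lower on all 4 scales. Of the 6 such proteins 4 (66.7%) were at least 2-fold lower and 2 (33.3%) at least 2-fold higher on the deposited scale, against 34.9% and 19.9% of all tested genes. The authors' deposited table gave p-values of 0.0335 for Dap3 and 0.0293 for Ptcd3.

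Factors that assemble the ribosome, or work with it, had low median levels, with single genes that differed widely between the groups. The shares of all tested genes at least 2-fold lower (34.9%) and higher (19.9%) apply to the counts here too. Of 26 assembly factors in the table, 23 were tested, with 4 (17.4%) at least 2-fold lower, 5 (21.7%) at least 2-fold higher and a median difference of 0.18 on the deposited scale, or 2.85 with equal sums. Malsu1, which keeps the subunits apart during assembly, was at 968 and 46.3 FPKM, lower on all 4 scales, and Mpv17l2 at 18.4 and 162 FPKM, higher on all 4 scales. Noa1, a GTPase needed for the small subunit, was at 103 and 1.32 FPKM with a p of 0.0155 in the authors' deposited table. Of 16 translation factors and regulators, 15 were tested, with 6 (40%) lower, 0 higher and a median of -0.48. Slirp, which stabilizes mitochondrial messenger RNA with Lrpprc, was at 674 and 44.2 FPKM, and Hemk1, which methylates release factors, at 72.8 and 1.23 FPKM. Both were lower on all 4 scales. The elongation factors Tufm (7.43 and 3.03 FPKM) and Tsfm (8.11 and 2.91 FPKM) were lower on the deposited scale and with quantile normalization and higher with equal sums. Of 19 mitochondrial aminoacyl-tRNA synthetases and related enzymes, 13 were tested, with 3 (23.1%) lower, 1 (7.69%) higher and a median of -0.33. Lars2, the leucine enzyme, was at 240 and 43.7 FPKM, lower on the deposited scale but higher with quantile normalization (0.17) and with equal sums (0.69). Tars2, the threonine enzyme, was at 782 and 1.31 FPKM (595-fold) and Yars2, the tyrosine enzyme, at 355 and 1.71 FPKM (208-fold), both lower on all 4 scales. Transcripts of the mitochondrial genome were searched for by symbol, but none was found in the deposited table, so they were not analysed here.

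**Figure D4:**
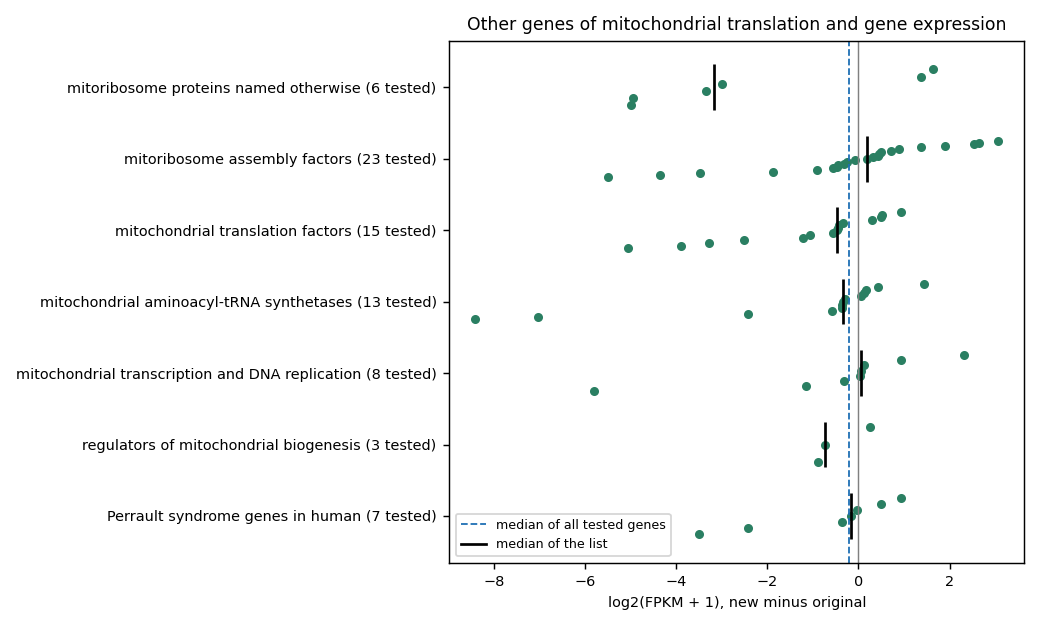
Difference in log2(FPKM + 1), new minus original hair cells on the deposited scale, for the tested genes of 7 lists. Each point is 1 gene, black bars are medians and the dashed line is the median of all tested genes (-0.21). The medians run from -3.17 for 6 mitoribosome proteins with other names to 0.18 for 23 assembly factors, and with equal sums the latter stands at 2.85 and the former at -0.12.

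Beside the proteins of the cytosolic ribosome and of the respiratory chain, which the mitochondrial ribosome helps to build, the family was at a lower level, and its median difference lay closer to 0 than both on the deposited scale but not with quantile normalization or equal sums. The 74 cytosolic ribosomal proteins had a median of 2253 FPKM in the original against 378 FPKM in the new group. Their median difference was -2.57, with 59 (79.7%) at least 2-fold lower and 5 (6.76%) at least 2-fold higher. The 87 tested nuclear genes of the respiratory chain stood at 1540 and 159 FPKM, with a median of -3.38, 61 (70.1%) lower and 6 (6.90%) higher. They were taken by symbol, which includes ATP synthase genes and any assembly factors with the same prefixes. Over all tested genes 34.9% were lower and 19.9% higher by that fold. Of the tested genes above the gap in the original column, 96.8% were at least 2-fold lower. For the 77 mitochondrial ribosomal proteins the median difference was -0.42. With equal sums the 3 medians were 0.57, -0.24 and 2.62 in the same order and with quantile normalization 0.72, -0.17 and 0.65. The respiratory chain was thus lowest on each of these scales, and the signs changed with the scaling. In rank, the medians of the cytosolic ribosome were 97.6 and 98.6 and those of the respiratory chain 96.5 and 96.6, whereas that of the mitochondrial ribosome was 71.0 in the original and 84.2 in the new group. The distances between these families were not tested.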

How the data were processed

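RNA of 4 libraries, 2 per group, was prepared with the SMART-Seq v4 kit, per the labels' protocols. CASAVA 1.8, Trimmomatic and TopHat were used with build mm10, per the submitters' processing notes. Per the file headers, the deposited FPKM column of each group held 1 value per gene. The authors also deposited a log2 ratio of new over original, which matched the ratio of both FPKM columns within 1.11e-05 for the members, and an unadjusted p-value from a test not given in the sources used here. With no value per library, limma could not be fitted and no SD or interval was possible.

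Members, gene lists and classes were chosen with earlier results of these data known. Differences used a pseudocount of 1, which understates changes of low genes. Trimmed-mean scaling dropped 30% of ratios and 5% of levels at each end and shifted differences by 0.35 (log2). Place and descent of each protein were assigned from general knowledge of the mammalian mitochondrial ribosome. The script was tested on simulated data. Printed starts are the deposited starts plus 1: of 5748 genes with the annotated end in GENCODE vM21, 2411 began exactly 1 base lower and 206 at the same base. Named members were, per subunit, the 5 highest, the 5 largest rises and the 5 largest falls, every member with a deposited p under 0.05, 3 members with misleading names and 3 hearing loss genes, 33 in all, and of each list the 2 highest genes. Others named were chosen after their values were seen. Python 3.11.15, numpy 2.4.6, pandas 2.3.3 and matplotlib 3.10.9 were used.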

Additional observations from a re-analysis of the deposited data

How the results depend on the processing

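The subunit medians depended on the scaling more than on any other choice. For the large subunit the median difference was -0.59 as reported, -0.73 with a pseudocount of 0.1, -0.61 with a minimum of 5 FPKM, -0.32 with trimmed-mean scaling, 0.18 with quantile normalization, 2.22 with equal sums and -0.42 without genes that share a locus. For the small subunit it was -0.19 as reported and -0.24, -0.14, 0.084, 1.28, 2.75 and -0.14 in the same order, and -0.16 by place in the ribosome. Counts of large subunit members at least 2-fold higher went from 11 to 18 with quantile normalization and 33 with equal sums, and those lower from 18 to 11 with equal sums. For the small subunit, higher members went from 10 to 16 and 22, and lower members from 12 to 7 and 4. Higher members were 37.5% of the large and 55.2% of the small subunit with quantile normalization, and 68.8% and 75.9% with equal sums. Over all tested genes, 31.1% were at least 2-fold higher and 25.8% lower with quantile normalization. With equal sums the shares of all tested genes were 69.6% higher and 15.0% lower. Of the 33 named members, Mrpl33 (0.63 and 0.43) and Mrps21 (1.199 and 1.18) changed sign with quantile normalization and with equal sums, and Mrps30 with equal sums only (1.65). Median ranks in original and new hair cells were 81.6 and 88.0 for the large and 79.4 and 90.1 for the small subunit with no minimum, and 53.3 and 72.4 and 53.9 and 80.5 with a minimum of 5 FPKM. No deposited p passed adjustment with either minimum, and 9 were under 0.05 unadjusted.

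No paired analysis was possible because the table holds 1 value per group. Leaving out each library in turn was not run for the same reason. Depth is unknown.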

Other observations

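Genes that copy and read the mitochondrial genome were mostly low in both groups. Of 13 in the table, 8 were tested, with 2 (25%) at least 2-fold lower in the new group and 1 (12.5%) at least 2-fold higher. Over all tested genes these shares were 34.9% and 19.9%. The median difference of the 8 was 0.05 on the deposited scale. Tfam, which packages mitochondrial DNA and starts its transcription, was at 128 FPKM in the original against 1.30 FPKM in the new group, lower on all 4 scales, with a p of 0.02125 in the authors' deposited table. Ssbp1, the single-strand DNA-binding protein of mitochondria, was at 15.8 and 16.3 FPKM. Lonp1, a protease of the matrix, was at 2.88 and 18.3 FPKM, higher on all 4 scales. Of 10 regulators of mitochondrial biogenesis, 3 were tested, and all were under 5 FPKM in both groups. Nrf1 was at 4.79 and 2.11 FPKM, Gabpb1, a subunit of GABP, at 4.66 and 2.38 FPKM, and Yy1 at 1.37 and 1.81 FPKM. Gabpa, the ETS subunit of GABP, was at 0.394 and 0.627 FPKM and was not among the tested genes.

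Perrault syndrome joins hearing loss with ovarian failure in human, and several of its genes act in mitochondrial translation. All 7 mouse genes on the list were tested. Clpp, a matrix protease that acts in assembly of the mitochondrial ribosome, was at 649 and 56.7 FPKM, and Lars2 at 240 and 43.7 FPKM. Hars2, the histidine enzyme, was at 2.86 and 2.00 FPKM. Peo1, the mitochondrial DNA helicase, was at 0.890 and 2.61 FPKM, and Eral1, which binds the RNA of the small subunit, at 0.822 and 1.57 FPKM. On the deposited scale 2 of the 7 (28.6%) were at least 2-fold lower, against 34.9% of all tested genes. With quantile normalization none was, against 25.8% of all tested genes.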
